A study of Homo sapiens with 2 samples.

Results

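The genes described here are 8 liver-enriched transcription factors, HNF4A, FOXA1, FOXA2, FOXA3, CEBPA, ONECUT1, PROX1 and PPARA, picked by symbol from an RNA-seq table of Hep3B cells that holds 11511 genes with values. Hep3B is an established human hepatocellular carcinoma line. The A4368 group is 1 library of Hep3B cells exposed for 24 h to 25 µM A4368, a compound known here only by its code, and the control group is 1 library of Hep3B cells left untreated; both were kept in DMEM with serum, and no source used here gives the vehicle. The comparison asks how expression of these regulators differs when the cells are exposed to the compound. All 8 members had a value in both libraries, and all 8 passed the filter for keeping a gene, a mean over both libraries of 1 FPKM or more, as did 11238 genes in all.

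FPKM is a fragment count scaled to the transcript's length and to the library's mapped fragments, so levels can be set beside each other between genes. Differences are given as log2((A4368 FPKM + 1)/(control FPKM + 1)), called the log2 ratio, and any fold stated in words divides the A4368 value by the control value, or the reverse for a lower gene, with no pseudocount. There were no replicates and the read depth is unknown, so no value carries an error, no test could be run and each difference is one between these 2 libraries. In bulk RNA, fewer cells with a transcript and less transcript per cell cannot be told apart.

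Hepatocyte identity is kept by a small set of transcription factors that bind one another's regulatory regions and, together, the enhancers of genes for plasma proteins, lipoproteins and metabolic enzymes. FOXA proteins open compact chromatin, HNF4A and C/EBP alpha hold the mature programme, ONECUT1 and PROX1 act in the growing liver bud and in biliary and hepatocyte lineage choice, and PPAR alpha switches on the use of fatty acids in fasting. Loss of HNF4A or C/EBP alpha is a known feature of poorly differentiated liver cancers.

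CEBPA, FOXA2 and FOXA3 stood at nearly the same level in both libraries, and the other members differed by 1.11-fold to 1.53-fold. None of the 8 lay past 1.5-fold on the log2(FPKM + 1) scale, where 3.19% of all kept genes did. HNF4A, ONECUT1, PPARA, FOXA2 and CEBPA had higher values with A4368 and FOXA1, FOXA3 and PROX1 had lower ones. That is 5 of 8 higher, against 52.0% of kept genes, and 3 of 8 lower, against 48.0%. FOXA1, PROX1 and PPARA lay past 1.2-fold, which is 3 of 8 where 22.4% of kept genes did; this limit was chosen after the values were seen. The median log2 ratio was 0.02 over the members and 0.0098 over all kept genes. The median size of the log2 ratio, without its sign, was 0.19 over the members and 0.14 over all kept genes. Summed over the 8 genes, expression was 480.4 FPKM with A4368 and 477 FPKM in the control, a ratio of 1.01.

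**Figure D1:**
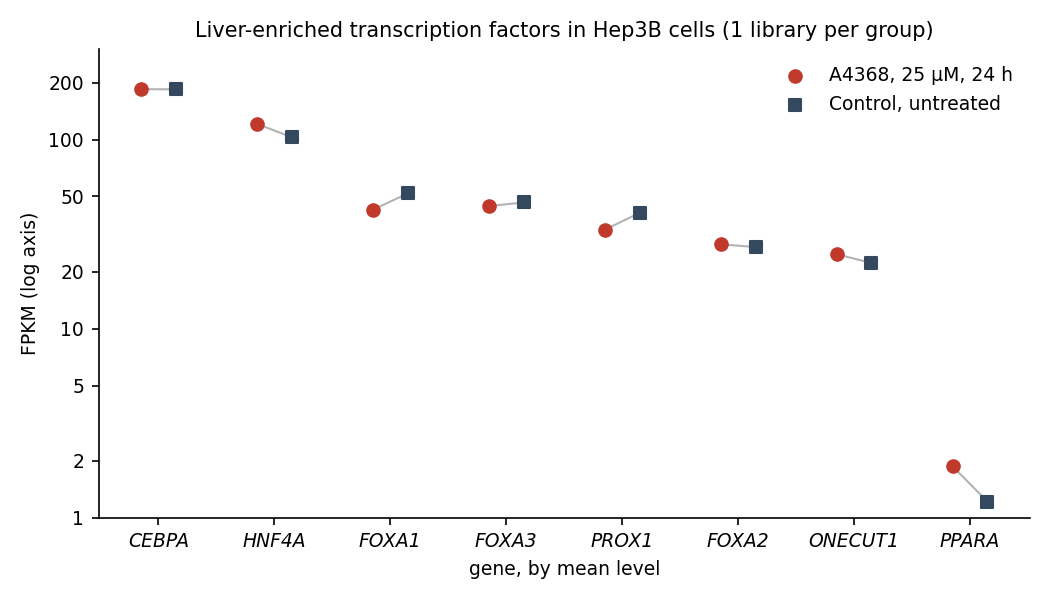
FPKM (log axis) of the 8 genes, ordered by mean level, in the A4368 library (circles) and the control library (squares), 1 library each. CEBPA and HNF4A stand above 100 FPKM in both libraries, PPARA stays under 2 FPKM, and the paired points of each gene lie close together.

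The levels fell into 3 ranges. CEBPA and HNF4A were above 100 FPKM in both libraries, 5 members lay between 22.2 and 51.9 FPKM, and PPARA was under 2 FPKM. In the A4368 library the order was CEBPA, HNF4A, FOXA3, FOXA1, PROX1, FOXA2, ONECUT1 and PPARA. In the control library FOXA1 stood above FOXA3, and the other places were alike. Among 77 transcription factor genes considered here, CEBPA and HNF4A ranked 2 and 3 by mean, below XBP1, a factor of the secretory pathway, while PPARA ranked 76. With no replicates, neighbours such as FOXA1 and FOXA3, or FOXA2 and ONECUT1, cannot be placed in a firm order.

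HNF4A encodes a nuclear receptor that activates a large share of hepatocyte genes. It stood at 121 FPKM with A4368 and 103 FPKM in the control, 1.17-fold higher, with a log2 ratio of 0.23. In FPKM this difference, 18.0, was the largest among the 8 members, while PPARA, PROX1 and FOXA1 had log2 ratios of larger size. Of all genes averaging 100 FPKM or more, 11.2% lay past 1.2-fold, and neither HNF4A nor CEBPA did. Its paralogue HNF4G was at 8.59 FPKM with A4368 and 9.78 FPKM in the control, so HNF4A exceeded it 14.1-fold with A4368 and 10.5-fold in the control.

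HNF4A is transcribed from separate promoters, the downstream of which is known as the main start of the adult liver and the upstream as that of pancreas and fetal liver. The deposited value is a gene total that does not divide them. RefSeq promoter windows (build GRCh38.p14, 250 bases before the start and 50 after) were at hand for 6 of the 8 members. Both HNF4A windows and that of FOXA1 are shown because they were the windows in which a short motif of a liver factor was found. They were searched on both strands for TGTTTNC (a FOXA core), ATCAAT (an ONECUT core), CAAAGTCCA (an HNF4 motif), AGGTCA repeated in the same direction with 1 base between (the direct repeat that PPAR alpha and HNF4A can bind) and TTGCGCAA (the C/EBP palindrome). Capitals mark each match as it reads on the printed strand.
HNF4A upstream window, chr20:44355449-44355748, plus strand: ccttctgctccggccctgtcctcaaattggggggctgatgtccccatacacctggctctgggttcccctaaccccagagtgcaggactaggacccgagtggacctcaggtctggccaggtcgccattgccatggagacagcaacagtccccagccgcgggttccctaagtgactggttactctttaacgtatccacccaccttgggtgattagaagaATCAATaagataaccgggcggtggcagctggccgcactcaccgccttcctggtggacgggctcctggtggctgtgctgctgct
HNF4A downstream window, chr20:44400989-44401288, plus strand: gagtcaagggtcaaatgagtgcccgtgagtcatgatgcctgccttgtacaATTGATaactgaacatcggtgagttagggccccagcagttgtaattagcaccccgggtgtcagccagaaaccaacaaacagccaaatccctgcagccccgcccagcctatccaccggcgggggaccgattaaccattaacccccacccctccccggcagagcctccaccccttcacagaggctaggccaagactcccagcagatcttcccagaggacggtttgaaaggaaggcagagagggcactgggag
FOXA1 window, chr14:37595200-37595499, minus strand: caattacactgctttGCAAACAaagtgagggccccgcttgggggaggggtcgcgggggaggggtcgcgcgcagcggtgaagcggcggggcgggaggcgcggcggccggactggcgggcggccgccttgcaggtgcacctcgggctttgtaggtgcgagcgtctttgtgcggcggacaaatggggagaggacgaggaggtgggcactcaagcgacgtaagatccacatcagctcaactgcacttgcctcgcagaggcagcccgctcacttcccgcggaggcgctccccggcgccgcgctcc

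An ONECUT core lay at positions -33 to -28 in the upstream HNF4A window and at -200 to -195 in the downstream window, where 0 is the transcript's first base. This motif is present in 6.26% of 35116 RefSeq windows of that length. FOXA1 held a FOXA core at -235 to -229, as do 18.0% of windows. No match overlapped another. The CAAAGTCCA motif occurs in 0.384% of windows, the direct repeat in 0.0228% and the C/EBP palindrome in 0.151%, and none of the members' windows held any of them. A match is a description of the letters and no measurement of binding.

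Of 35 textbook HNF4A targets, 22 had values and were kept. In the A4368 library 5 were higher and 17 lower, where 48.0% of all kept genes were lower. Of the 22 HNF4A targets, 5 also stand in the list of FOXA targets given below. The median log2 ratio of the HNF4A targets was -0.09, while that of HNF4A itself was 0.23. With the libraries rescaled so that all but the 50 highest genes had equal sums, these values were -0.04 and 0.28. The targets were then still 5 higher and 17 lower. The targets past 1.5-fold were 2 genes, both lower, where 2.12% of kept genes were lower by that limit. APOC2, an activator of lipoprotein lipase, was at 14.1 FPKM with A4368 and 24.6 FPKM in the control. APOH, a plasma phospholipid-binding protein, was at 238 FPKM with A4368 and 374 FPKM in the control. The most abundant target, APOA2, an apolipoprotein of high-density particles, was at 11651 FPKM with A4368 and 11457 FPKM in the control. KNG1, the kininogen gene, had a log2 ratio of -0.56.

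The 3 FOXA genes encode forkhead pioneer factors that act in overlapping ways on liver enhancers. FOXA1 was at 42.6 FPKM with A4368 and 51.9 FPKM in the control, 1.22-fold lower, with a log2 ratio of -0.28. FOXA3, the form most tied to the mature liver, was at 44.5 FPKM with A4368 and 46.5 FPKM in the control, a log2 ratio of -0.06. FOXA2, which also acts in glucose and bile acid metabolism, was at 27.9 FPKM with A4368 and 27.0 FPKM in the control, a log2 ratio of 0.04. FOXA1 thus had the widest gap of the 3, while FOXA3 was 1.04-fold lower and FOXA2 1.03-fold higher.

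Together the 3 genes summed to 115 FPKM with A4368 and 125 FPKM in the control, 0.917 of the control value. FOXA1 made up 37.0% of that sum with A4368 and 41.4% in the control. FOXA3 made up 38.7% with A4368 and 37.1% in the control, and FOXA2 24.3% with A4368 and 21.6% in the control.

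The other forkhead genes give the family's range. Of 16 with values, all kept, 6 were higher and 10 lower, against 48.0% of kept genes lower. Their median log2 ratio was -0.04, or 0.00029 with the libraries rescaled so that all but the 50 highest genes had equal sums. A single gene passed 1.5-fold and was lower, as were 2.12% of kept genes. That gene, FOXJ1, the regulator of motile cilia, was at 11.5 FPKM with A4368 and 24.9 FPKM in the control. FOXA1 had the lowest log2 ratio of the family after FOXJ1 and FOXP2, which was at 3.29 FPKM with A4368 and 4.39 FPKM in the control. FOXM1, a proliferation factor and the most abundant forkhead gene, was at 55.2 FPKM with A4368 and 58.2 FPKM in the control. FOXA1 and FOXA3 were next to it in mean level.

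Of 15 textbook FOXA targets, 11 were kept, with 3 higher and 8 lower, against 48.0% of all kept genes lower. The median log2 ratio of these targets was -0.06. After the same rescaling 5 were higher and 6 lower. IGFBP1, an insulin-repressed binding protein of growth factors, passed 1.5-fold at 2.64 FPKM with A4368 and 1.09 FPKM in the control, where 1.08% of kept genes were higher by that limit. Without a pseudocount, 8.24% of genes with a mean of 1 to 5 FPKM, the level of IGFBP1, were higher by at least 1.5-fold. VTN, which encodes vitronectin, was at 199 FPKM with A4368 and 277 FPKM in the control. TTR, the transthyretin gene on which FOXA proteins were first defined, was at 55.4 FPKM with A4368 and 62.5 FPKM in the control.

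**Figure D2:**
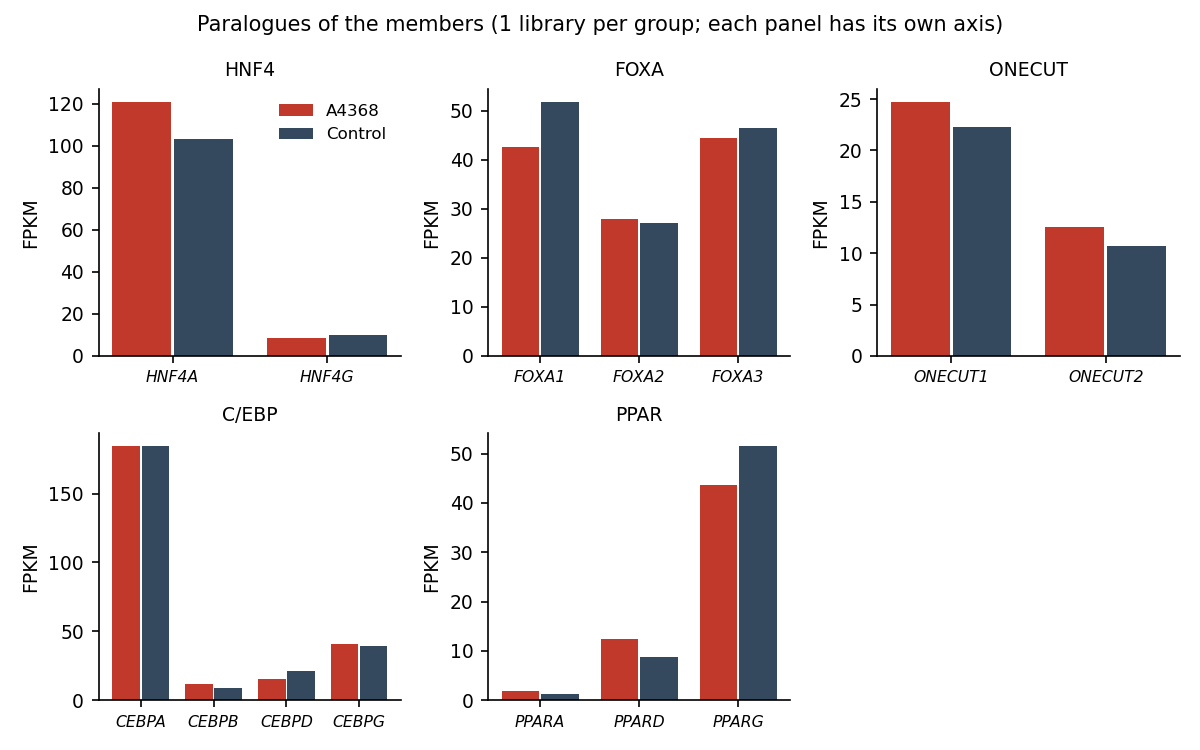
FPKM of the members other than PROX1 and of their paralogues, with bars for the A4368 library to the left of those for the control library, 1 library each. HNF4A and CEBPA hold most of their families' summed level in both libraries, PPARA holds the least of its family, and FOXA1 is lower with A4368 while FOXA2 and FOXA3 are level.

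CEBPA encodes C/EBP alpha, a leucine zipper factor that restrains division and drives metabolic genes in hepatocytes. It was the most abundant member, at 185 FPKM with A4368 and 184 FPKM in the control, a log2 ratio of 0.0030. This was the smallest difference among the 8 genes. In GENCODE release 29, antisense transcripts with no value here cover parts of CEBPA, the longer overlap being 25.0% of its exon bases, and the strandedness of the libraries is not given, so reads of both strands could be counted together.

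Other C/EBP genes differed more, in both directions. CEBPB, a factor of injury and inflammation, was at 12.1 FPKM with A4368 and 9.12 FPKM in the control. CEBPD, an acute phase factor, was at 15.6 FPKM with A4368 and 21.4 FPKM in the control. CEBPG, a partner without an activation domain, was at 40.6 FPKM with A4368 and 39.6 FPKM in the control. CEBPA made up 73.0% of the summed level of these 4 genes with A4368 and 72.4% in the control. It exceeded CEBPB 15.3-fold with A4368 and 20.2-fold in the control, and CEBPD 11.8-fold with A4368 and 8.61-fold in the control.

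Of 14 textbook C/EBP alpha targets, 7 were kept, with 1 higher and 6 lower, against 48.0% of all kept genes lower. The median log2 ratio of these targets was -0.07. These lists share genes: 6 of the 7 kept here also stand in the FOXA list (6 of its 11), so the tallies are not separate. After the rescaling 3 were higher and 4 lower. None passed 1.5-fold. ORM1, an orosomucoid gene with a close copy in ORM2, was at 92.2 FPKM with A4368 and 126.6 FPKM in the control, and AFP, the alpha-fetoprotein gene, was at 295 FPKM with A4368 and 368 FPKM in the control. APOB, the structural protein of very low-density lipoprotein, was the higher member at 301 FPKM with A4368 and 281 FPKM in the control.

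ONECUT1, also called HNF6, encodes a cut-homeodomain factor of early liver and bile duct formation. It was at 24.7 FPKM with A4368 and 22.2 FPKM in the control, 1.11-fold higher, with a log2 ratio of 0.15. ONECUT2, which overlaps with it in function, was at 12.5 FPKM with A4368 and 10.7 FPKM in the control, a log2 ratio of 0.21. Both ONECUT genes were higher, their sum was 1.13-fold higher, and ONECUT1 exceeded ONECUT2 1.97-fold with A4368 and 2.08-fold in the control. Of 9 textbook ONECUT1 targets 3 had values, with 1 higher and 2 lower, against 48.0% of all kept genes lower. The median log2 ratio of these targets was -0.17. FOXA2 and TTR, described above, are among them.

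PROX1 encodes a prospero homeodomain factor that mouse hepatoblasts need to spread into the liver bud and that represses transcription by HNF4A and NR5A2. It was at 33.3 FPKM with A4368 and 40.9 FPKM in the control, 1.23-fold lower, with a log2 ratio of -0.29, the lowest of the 8. PROX1 and FOXA1 were the 2 of 5 members between 20 and 100 FPKM that lay past 1.2-fold, where 15.5% of genes at that level did. The RNA level of HNF4A exceeded that of PROX1 3.63-fold with A4368 and 2.51-fold in the control, which is no measure of repression. NR5A2, the other nuclear receptor that PROX1 represses, was at 39.7 FPKM with A4368 and 34.9 FPKM in the control. NR0B2, a further repressor of both receptors, was at 54.8 FPKM with A4368 and 67.3 FPKM in the control. The part of PROX1 or NR0B2 in the activity of either receptor was not tested. PROX1 also marks lymphatic endothelium, and none of 7 endothelial markers chosen, lymphatic ones included, had a value here.

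PPARA encodes PPAR alpha, the fatty acid receptor that fibrate drugs activate. It was at 1.87 FPKM with A4368 and 1.22 FPKM in the control. Its plain ratio of 1.53 was the highest of the members, and 2.56% of all kept genes and 8.24% of those with a mean of 1 to 5 FPKM were higher by at least 1.5-fold in that measure. On the log2(FPKM + 1) scale, which understates low genes, its ratio was 0.37. It was 0.58 with a pseudocount of 0.1 and 0.14 with a pseudocount of 5. On that scale 35.6% of genes with a mean of 1 to 5 FPKM lay past 1.2-fold.

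PPARA was the least expressed gene of its family. PPARD, a broadly expressed relative, was at 12.3 FPKM with A4368 and 8.74 FPKM in the control, a log2 ratio of 0.45. PPARG, the adipocyte regulator, was at 43.6 FPKM with A4368 and 51.5 FPKM in the control, a log2 ratio of -0.24. PPARG exceeded PPARA 23.3-fold with A4368 and 42.3-fold in the control. PPARA made up 3.24% of the summed PPAR level with A4368 and 1.98% in the control, PPARD 21.3% with A4368 and 14.2% in the control, and PPARG 75.5% with A4368 and 83.8% in the control. RXRA, the receptor with which PPARs pair on DNA, was at 25.9 FPKM with A4368 and 22.4 FPKM in the control, and RXRB at 31.9 FPKM with A4368 and 28.3 FPKM in the control.

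Of 24 textbook PPARA targets, 19 had values and 17 were kept. Of these, 12 were higher and 5 lower, with a median log2 ratio of 0.18, where 52.0% of kept genes were higher. Past 1.5-fold there was 1 gene, which was higher, as were 1.08% of kept genes. That gene, CREB3L3, a liver factor of fasting, was at 3.86 FPKM with A4368 and 1.90 FPKM in the control. By plain ratio, 8.24% of genes with a mean of 1 to 5 FPKM, its level, were higher by at least 1.5-fold. CPT1A, the gate for fatty acids into mitochondria, was at 35.0 FPKM with A4368 and 24.2 FPKM in the control, and ACAA1, a peroxisomal thiolase, at 35.2 FPKM with A4368 and 26.9 FPKM in the control. Among the lower targets, TXNIP, an inhibitor of thioredoxin, was at 14.4 FPKM with A4368 and 20.6 FPKM in the control, and PLIN2, a lipid droplet coat gene, at 192 FPKM with A4368 and 210 FPKM in the control. PDK4, which restrains glucose oxidation, was below the filter, at 1.04 FPKM with A4368 and 0.344 FPKM in the control. Many of these genes also answer to other PPARs. The list overlaps with fatty acid oxidation genes already known to be higher in these libraries, so its direction is not independent evidence.

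The transcription factors most like PPARA in log2 ratio, by the absolute difference over the 2 libraries and among 69 other factor genes, were CEBPB, NR1D2, a circadian repressor, and ATF5, a stress factor, with log2 ratios of 0.37, 0.36 and 0.41. With 2 libraries this likeness rests on a single ratio per gene. It also depends on the pseudocount. The plain ratios of CEBPB, NR1D2 and ATF5 were 1.33, 1.32 and 1.34, against 1.53 for PPARA. PPARD, at 1.41, was nearer to PPARA than these by plain ratio.

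**Figure D3:**
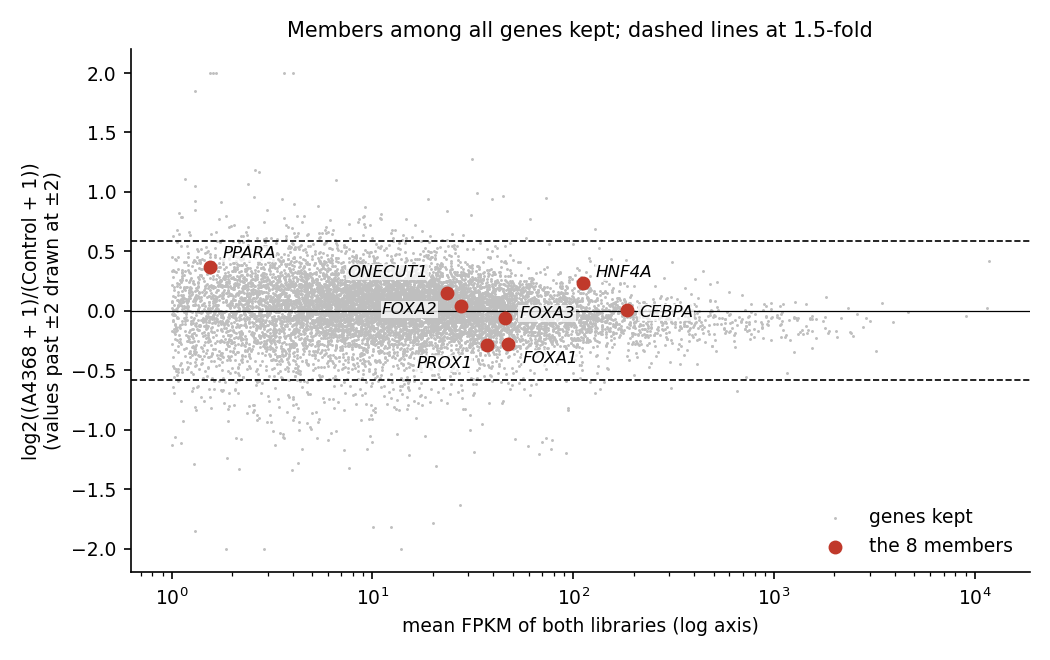
Log2 ratio of A4368 over control against mean FPKM (log axis) for all 11238 kept genes (grey) and the 8 members (red), with dashed lines at 1.5-fold. All 8 members lie between the dashed lines, from -0.29 (PROX1) to 0.37 (PPARA), and the cloud is wider at the low level of PPARA than at that of CEBPA.

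Coregulators of HNF4A and PPAR alpha, like the members, held no gene past 1.5-fold on the log2(FPKM + 1) scale. Of 21 coactivators and corepressors, 18 were kept, with 11 higher, 7 lower, a median log2 ratio of 0.06 and none past 1.5-fold. Of all kept genes 52.0% were higher and 3.19% lay past 1.5-fold. NCOA1, a coactivator, was at 3.59 FPKM with A4368 and 2.45 FPKM in the control. NRIP1, which represses nuclear receptors, was at 8.97 FPKM with A4368 and 10.6 FPKM in the control. PRMT1, the most abundant, was at 209 FPKM with A4368 and 217 FPKM in the control.

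Set beside the members, most related factor lists were also centred near 0. The exception was the list of biliary and progenitor factors described further below, with a median log2 ratio of -0.26. Of 14 other liver and endoderm factors kept, 6 were higher and 8 lower, with a median log2 ratio of -0.03 that was 0.0059 after the rescaling. ZHX2, a repressor of alpha-fetoprotein in mouse liver, was at 6.38 FPKM with A4368 and 9.38 FPKM in the control, and HHEX, a liver bud factor, at 64.2 FPKM with A4368 and 71.2 FPKM in the control. Nuclear receptors had 8 of 18 higher and a median of -0.05, and the C/EBP and liver leucine zipper list had 5 of 11 higher and a median of -0.08. Over all kept genes 52.0% were higher. The members' log2 ratios ran from -0.29 to 0.37 and those of the nuclear receptors from -0.57 to 0.45. The other liver and endoderm factors ran from -0.49 to 0.24 and the C/EBP and leucine zipper list from -0.53 to 0.75. The coregulators ran from -0.22 to 0.41. These ranges are a description over unequal numbers of genes.

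**Figure D4:**
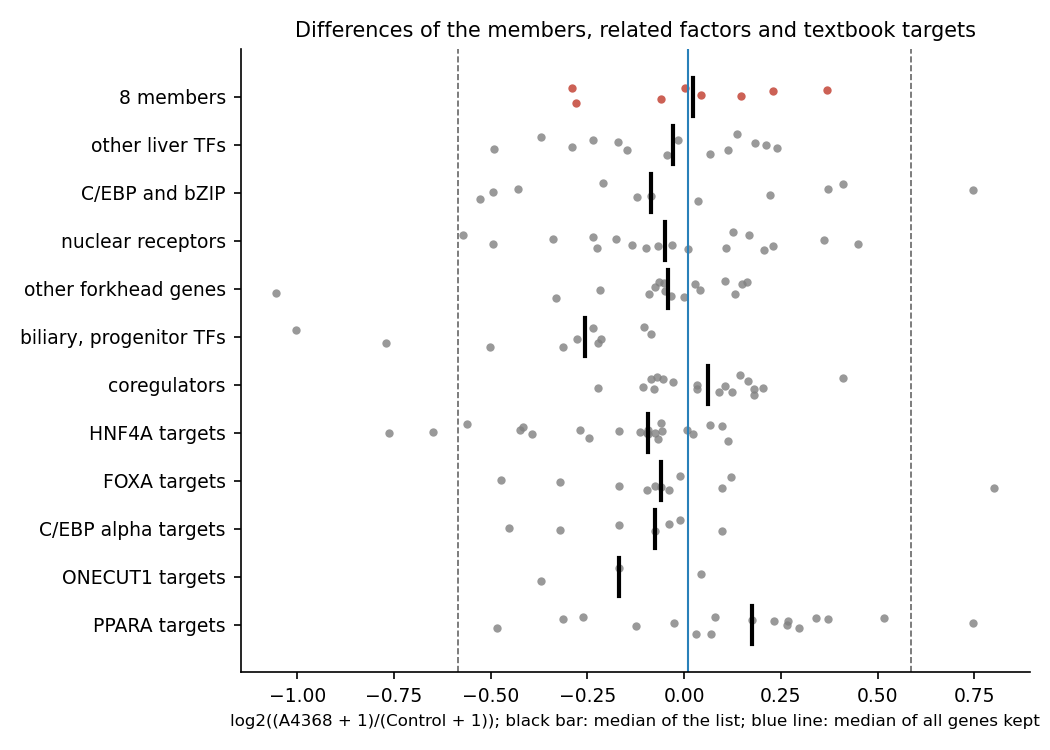
Log2 ratio of A4368 over control for each kept gene of the members (red) and of the related lists (grey), with black bars at list medians, a blue line at the median of all kept genes and dashed lines at 1.5-fold. The members centre at 0.02, the PPARA targets at 0.18 and the HNF4A targets at -0.09, with wide overlap. The biliary and progenitor factors centre at -0.26 and all lie below 0.

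Markers of liver cells were present. All 7 hepatocyte markers had values, and 1 was higher and 6 lower with A4368, against 48.0% of all kept genes lower. Of these 7 markers, 6 also stand in the FOXA target list and 5 in the HNF4A target list. Their tally is therefore not separate from those above. The summed level of the 7 markers was 11870 FPKM with A4368 and 12268 FPKM in the control. Of 5 cholangiocyte markers 3 had values, summing to 493 FPKM with A4368 and 625 FPKM in the control. Of 6 stellate and fibroblast markers 1 had a value, at 11.9 FPKM with A4368 and 17.9 FPKM in the control, and of 6 leukocyte markers 3 did, summing to 39.9 FPKM with A4368 and 50.1 FPKM in the control. Both libraries come from the Hep3B line, so these values are transcripts of that culture and no measure of other cell types. The part of these markers in the members' values was not tested.

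Most members share little sequence with other genes. Of the distinct 31-base words of each gene's GENCODE transcripts, 39.8% of those of CEBPA occur in transcripts of another gene, on either strand, chiefly its antisense neighbours. The share was 4.17% for PPARA, 4.08% for FOXA2 and under 2% for FOXA1, HNF4A and PROX1. No word of FOXA3 or ONECUT1 was shared. FOXA1 overlaps TTC6 on the opposite strand by 16 exon bases, and TTC6 was at 1.72 FPKM with A4368 and 1.55 FPKM in the control.

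**Figure D5:**
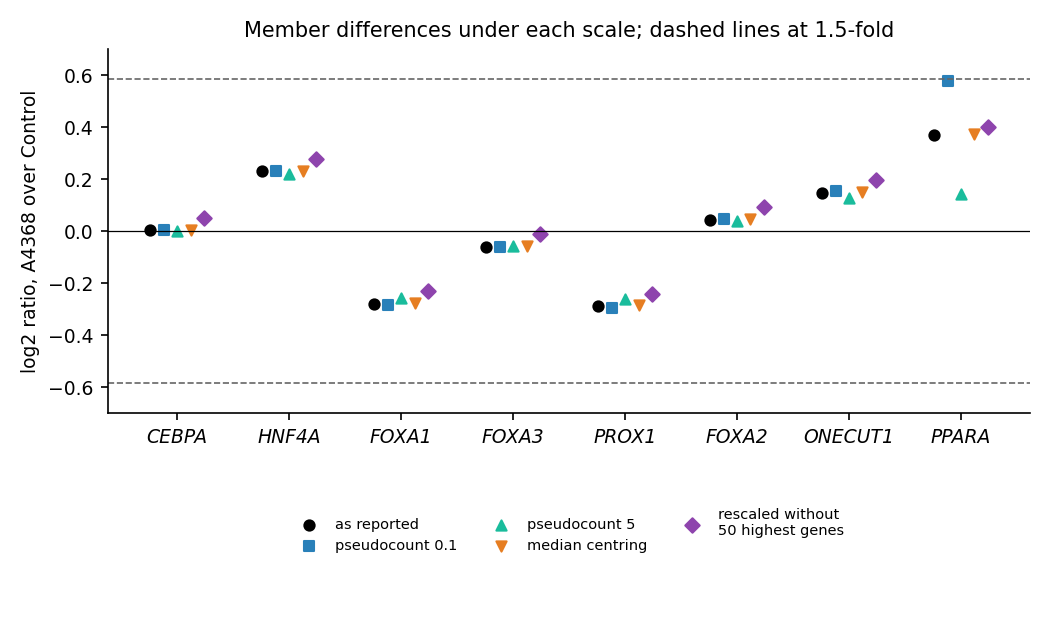
Log2 ratio of A4368 over control for each member as reported and under each alternative scale, with dashed lines at 1.5-fold. The directions, which a pseudocount cannot change, hold under every scale drawn, and PPARA spreads most, from 0.14 to 0.58.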

How the data were processed

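RNA-seq was measured in 1 A4368 library and 1 control library of Hep3B cells. The authors deposited 1 table of gene symbols with a value per library. The unit is not in the header; per the submitters' processing notes the tools were Bowtie2 2.2.3, TopHat2 2.0.12 and Cufflinks on hg19, so the deposited values were read as FPKM. No source used here gives the annotation, strandedness or depth, and FPKM carry no counts, so no interval or floor is given. The table has 24302 lines, of which 11511 pair a symbol with 2 values. No gene had a mean under 0.496 FPKM.

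Log2 ratios used a pseudocount of 1 FPKM and a filter at a mean of 1 FPKM, which removed 273 genes. Called means past 1.5-fold, with 2-fold as an alternative. With 1 library per group no test was possible. Members and lists were chosen with earlier results of these data known. Named were all members, then from each list up to 4 genes by absolute ratio and 2 by mean, with paralogues and partners of members added after their values were seen; some of these are not reported here. Alternatives were pseudocounts of 0.1 and 5, no filter or one at 5 FPKM, ratios centred at the median of genes averaging 10 FPKM or more, and a rescaling that gives all but the 50 highest genes equal sums. The calculation was tested on simulated data. Promoters came from RefSeq (GRCh38.p14), a build other than the authors' hg19, and gene models from GENCODE release 29. Python 3.11.15, numpy 2.4.6, pandas 2.3.3 and matplotlib 3.10.9 were used.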

Additional observations from a re-analysis of the deposited data

How the results depend on the processing

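All 8 members kept their direction and stayed within 1.5-fold under each pseudocount and scaling tried, except that PPARA did not pass a filter at 5 FPKM. With no pseudocount, PPARA lay past 1.5-fold, at a plain ratio of 1.53. Its log2 ratio was 0.58 with a pseudocount of 0.1. A pseudocount cannot change the sign of a ratio, and both scalings raised the ratios. Only the lower members, FOXA1, FOXA3 and PROX1, could therefore have changed direction. FOXA3 came nearest, at a log2 ratio of -0.012 after the rescaling. Leaving out PPARA, a choice made after the data were seen, gave a median log2 ratio of 0.0030 over 7 members with 4 higher and 3 lower. The rescaling moved the median of all kept genes by 0.05 log2 units; the median of the other liver factors was then 0.0059 and that of the other forkhead genes 0.00029, both above 0, with 5 FOXA targets and 3 C/EBP alpha targets higher. Genes past 1.5-fold numbered 121 higher and 238 lower as reported (33.7% higher), 160 and 197 after the rescaling (44.8% higher), 259 and 369 with a pseudocount of 0.1, 20 and 78 with a pseudocount of 5, and, with a filter at 5 FPKM, 58 and 140. At the 2-fold limit 13 were higher and 49 lower. No paired analysis was possible because each group has 1 library, and no library could be left out. The unknown depth limits what can be said of PPARA.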

Other observations

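The transcription factors listed for biliary and progenitor cells were lower with A4368 in each case measured. ONECUT1, which also acts in bile duct formation, and ONECUT2 were not on this list and were higher. Of 14 listed genes 10 had values, and all 10 were lower with A4368, against 48.0% of all kept genes, with a median log2 ratio of -0.26. The 10 include YAP1 and the TEAD genes TEAD1, TEAD2, TEAD3 and TEAD4. The list was chosen with earlier results of these data known, so its direction is not independent evidence. SOX9, a factor of bile duct cells, was at 20.1 FPKM with A4368 and 41.2 FPKM in the control, and TEAD2, a DNA-binding partner of YAP, at 17.2 FPKM with A4368 and 30.0 FPKM in the control. SOX4, a progenitor factor, was at 91.2 FPKM with A4368 and 129 FPKM in the control, and ELF3, an epithelial ETS factor, at 48.4 FPKM with A4368 and 60.3 FPKM in the control. Cholangiocyte markers were lower beside them, and the part of these in the list's values was not tested.

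Of the 11 kept genes of the C/EBP and liver leucine zipper list, 5 were higher and 6 lower, against 48.0% of all kept genes lower. DBP was at 2.02 FPKM with A4368 and 3.36 FPKM in the control and HLF at 4.05 FPKM with A4368 and 6.11 FPKM in the control.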
